A study of Mus musculus with 12 samples.

Results

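The genomic sites bound by MOF in mouse haematopoietic stem cells (HSC) were compared between wild-type animals and animals with the genotype Mof -/+. A site was a wild-type peak summit widened by 150 bp either way, to 301 bp, or a heterozygous peak interval as deposited. Sites on chromosomes 1 to 19 and X were kept. Sites in the first 4 Mb of chromosome 9 and sites overlapping an interval of the GATA1 list from the progenitor line HPC7 were left out. Of the 1876 wild-type summits, 1815 (96.7%) were kept, and of the 338 heterozygous intervals, 189 (55.9%) were kept. The steps removed 26, 11 and 24 wild-type summits in that order, and 55, 35 and 59 heterozygous intervals. A wild-type and a heterozygous site that overlapped by at least 1 bp counted as shared. This gave 1771 wild-type-only sites, 44 shared sites and 145 heterozygous-only intervals, together 1960 of the 3653 regions in the 5 lists of the series that were used.

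Both libraries came from C57BL/6 bone marrow, with 15000 HSC sorted from pooled bones by the gate LSK CD34- Flt3- (LSK stands for the Lin- Sca-1+ Kit+ progenitor gate). One group carried the genotype Wild type and the other Mof -/+; how the Mof allele was made, in which cells it was lost, and the number, age and sex of the animals are not given here. Chromatin from sonicated nuclei was precipitated with an antibody against MOF and sequenced. Each genotype had 1 library, so no difference below has a replicate check and no p-value is given. Intervals in parentheses after shares are 95% Wilson intervals, which cover counting error only. The read depth of each library is unknown, and the length of a peak list moves with depth and caller settings. A peak list measures neither gene expression nor gene dose, so it checks neither the sorted cell type nor the genotype. The gene Kat8, which encodes MOF, held 3 wild-type sites and 1 heterozygous site, and all 4 overlapped the GATA1 list and were left out.

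MOF is a lysine acetyltransferase of the MYST family whose best known product is histone H4 acetylated at lysine 16, a mark that loosens the packing of nucleosomes. It works in a pair of complexes. The MSL complex is known from dosage compensation of the male X chromosome in flies, and the NSL complex, with subunits such as KANSL2, KANSL3 and MCRS1, is found at promoters of widely expressed genes. In blood formation MOF is known to be needed for adult stem cell maintenance.

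The DNA just before the start of 11 genes is printed first, because most wild-type-only sites sat at such places. These genes are chosen examples from the classes. They do not show how often a word occurs in a class, and the shares over all windows are given further below. The 150 bases before each start run 5′ to 3′ on the gene's strand and come from RefSeq (GRCm38.p6, the build mm10 of the peaks). Capitals mark an exact match, on either strand, to CCGGAAG (the core bound by ETS factors such as GABPA), AAGATGGC (YY1), CACGTG (the E-box of MYC, MAX and USF) or GGGCGG (the SP1 box). A match describes letters in a window and is not evidence of a factor there. The first 4 belong to shared sites: Gorasp2 (chr2:70661359-70661508, plus strand), Adam17 (chr12:21373633-21373782, minus), Poc5 (chr13:96388144-96388293, plus) and Hjurp (chr1:88277580-88277729, minus).
Gorasp2: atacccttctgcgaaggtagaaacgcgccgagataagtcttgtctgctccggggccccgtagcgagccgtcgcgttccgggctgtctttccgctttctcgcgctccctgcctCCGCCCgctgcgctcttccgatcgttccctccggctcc
Adam17: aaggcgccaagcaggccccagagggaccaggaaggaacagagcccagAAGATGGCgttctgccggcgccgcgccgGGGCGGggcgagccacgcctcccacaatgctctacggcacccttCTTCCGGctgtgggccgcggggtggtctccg
Poc5: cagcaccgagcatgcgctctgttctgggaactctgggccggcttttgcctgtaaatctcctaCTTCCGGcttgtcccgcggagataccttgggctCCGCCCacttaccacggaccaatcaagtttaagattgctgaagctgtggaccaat
Hjurp: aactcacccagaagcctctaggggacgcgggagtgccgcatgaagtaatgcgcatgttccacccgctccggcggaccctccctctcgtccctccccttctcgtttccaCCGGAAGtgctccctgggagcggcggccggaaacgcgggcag
Adam17 carried 3 words, with the YY1 word 103 bases, the SP1 box 75 bases and the reversed ETS core 31 bases before the start. Poc5 carried the reversed ETS core 88 bases before the start and Hjurp the forward core 42 bases before it. Gorasp2 carried a reversed SP1 box alone.

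Next come 4 genes with wild-type-only sites of high value, for which no heterozygous interval was called: Nme1 (chr11:93968273-93968422, minus strand), Tpt1 (chr14:75845106-75845255, plus), Msh6 (chr17:87974900-87975049, plus) and Rasa1 (chr13:85289487-85289636, minus).
Nme1: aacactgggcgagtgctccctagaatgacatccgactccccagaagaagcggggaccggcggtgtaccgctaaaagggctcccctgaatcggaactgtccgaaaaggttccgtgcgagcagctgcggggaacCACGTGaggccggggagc
Tpt1: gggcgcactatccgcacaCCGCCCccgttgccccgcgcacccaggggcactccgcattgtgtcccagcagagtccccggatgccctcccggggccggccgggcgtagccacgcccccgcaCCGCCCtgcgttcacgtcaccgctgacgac
Msh6: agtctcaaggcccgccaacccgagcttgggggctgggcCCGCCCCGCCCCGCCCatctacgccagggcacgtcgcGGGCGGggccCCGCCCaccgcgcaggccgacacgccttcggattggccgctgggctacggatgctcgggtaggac
Rasa1: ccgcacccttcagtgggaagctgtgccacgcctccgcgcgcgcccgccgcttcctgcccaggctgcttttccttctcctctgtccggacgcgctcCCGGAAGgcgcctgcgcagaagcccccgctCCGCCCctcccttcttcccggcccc
Msh6 held 5 copies of the SP1 box within this stretch, from 112 to 65 bases before the start, in places with a shared base between neighbours. Nme1 held an E-box 18 bases before the start, and Rasa1 an ETS core and an SP1 box. Among these chosen examples, the ETS core and the SP1 box stood before genes of both the shared and the wild-type-only class.

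Mars2 (chr1:55237027-55237176, plus strand) had a heterozygous-only interval. Gm13272 (chr4:88779700-88779849, plus) had a shared site and Gm13283 (chr4:88760624-88760773, plus) a wild-type-only site. The last pair is shown because these copies of the interferon zeta family fall in different classes although their letters are nearly the same.
Mars2: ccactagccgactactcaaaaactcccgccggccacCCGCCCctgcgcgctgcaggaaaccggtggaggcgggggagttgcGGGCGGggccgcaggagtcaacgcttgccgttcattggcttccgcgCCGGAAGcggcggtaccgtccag
Gm13272: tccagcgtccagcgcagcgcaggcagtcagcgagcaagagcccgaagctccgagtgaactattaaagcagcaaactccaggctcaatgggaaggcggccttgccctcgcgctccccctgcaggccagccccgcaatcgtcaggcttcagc
Gm13283: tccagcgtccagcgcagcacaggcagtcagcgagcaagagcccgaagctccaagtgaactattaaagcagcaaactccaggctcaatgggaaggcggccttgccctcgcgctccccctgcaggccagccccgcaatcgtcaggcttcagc
Over the whole promoter window of 300 bases, from 250 before to 50 after the start, Gm13283 differed from Gm13272 at 3 positions (99% identity). The windows of Gm13285 and Gm13287, which had heterozygous-only intervals, were identical to that of Gm13272. Compared position by position, the windows of Gm13286, Gm13289 and Gm13290 were 65%, 26.7% and 26.3% identical to that of Gm13272. Each of these windows nevertheless held a repeated stretch of 50 bases. Reads from copies with such repeated sequence cannot be assigned with certainty, so the class of each copy in this family is uncertain.

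Few sites were called in both genotypes. A heterozygous interval covered 44 of the 1815 kept wild-type sites, a share of 2.42% of the list, and the same 44 pairs made up 23.3% of the 189 kept heterozygous intervals. Each shared wild-type site met exactly 1 heterozygous interval. The lists held 1815 and 189 kept sites, a length ratio of 9.60, so the first share could not exceed the 189 intervals of the shorter list. In the wild-type list cut to its 189 highest values, 13 sites were shared. Leaving out the GATA1 list also lowered the overlap. With its intervals kept, 65 sites were shared, beside 1774 wild-type-only sites and 183 heterozygous-only intervals. The wild-type summits that this step removed were thus mostly shared ones.

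The value of a site below is the authors' −log10 value for wild-type summits, read as a −log10 q-value, and the authors' −log10 q for heterozygous intervals. These values rank sites within a list and were not compared as levels between lists. Shared sites had a median wild-type value of 7.58 (range 1.89 to 24.1), against 5.21 (1.31 to 28.5) for wild-type-only sites. The share of wild-type sites that was also called in the heterozygous list was 1.10% in the lowest quartile of wild-type values, 1.32% and 2.21% in the middle quartiles, and 5.07% (3.4 to 7.49) in the highest. Part of this rise came from the run of repeats on chromosome 6 described below, whose number of peaks is uncertain. Of the 23 shared sites in the highest quartile, 15 lay outside that run. The lower quartiles held 5, 6 and 8 shared sites outside it. At gene ends the share rose from 0.683% in the lowest quartile to 3.79% in the highest, and the medians were 6.34 (shared) and 5.23 (wild type only). Sites of high value were thus more often shared, but the ranges overlapped widely: 393 of the 1771 wild-type-only sites (22.2%) had a value at or above the shared median. Of the 10 highest wild-type values 2 were shared, and of the 10 highest heterozygous values 5 were shared. Both of those wild-type sites lay in runs described below, near Pdia4 in the chromosome 6 run and near Gm15319 on proximal chromosome 8. Of the 5 heterozygous intervals, those of rank 5 and 7 lay in the chromosome 6 run.

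Pairs were shared by overlap, which itself limits how far apart their summits can lie. The distance from the wild-type to the heterozygous summit had a median of 36 bp (range 3 to 159 bp), with 29 of 44 pairs within 50 bp and 36 within 100 bp. Values in both lists tended to rank together, with a Spearman rho of 0.54 over 44 sites, 0.39 over the 25 at gene ends and 0.49 over the 34 outside the 4.5S RNA run described below. These coefficients are descriptions, since all points come from the same pair of libraries and neighbouring sites share repeated sequence.

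**Figure D1:**
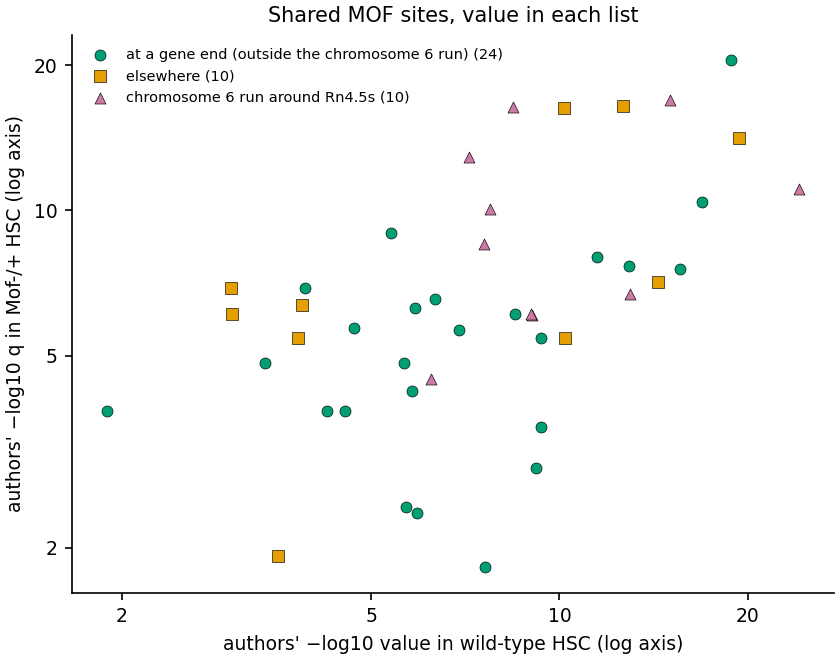
Each point is a shared site, with the authors' −log10 value in wild-type HSC on the horizontal log axis and the authors' −log10 q in Mof -/+ HSC on the vertical log axis. Colours separate sites at gene ends, elsewhere and in the chromosome 6 run; values range from 1.89 to 24.1 in wild type, and the ranks rise together only loosely (rho 0.54).

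Wild-type-only sites sat mainly at genes' ends and mostly at starts. A site was placed at a gene end if its midpoint (for heterozygous intervals, of the interval) lay within 1 kb of an end, left or right, of a RefSeq protein-coding gene. This held for 1117 of 1771 wild-type-only sites (63.1%, 60.8 to 65.3), 25 of 44 shared sites (56.8%, 42.2 to 70.3) and 45 of 145 heterozygous-only intervals (31.0%, 24.1 to 39.0). Elsewhere inside genes were 20.4%, 18.2% and 31.0% of the classes, and outside genes 16.5%, 25% and 37.9%. The heterozygous-only gene-end interval did not overlap that of the wild-type-only class. It also missed that of the shared class under the main rule. The heterozygous-only and shared intervals overlapped with 1 bp summits and with a required overlap of 150 bp (25.2 to 40.1 against 39.8 to 69.3 in both). They also overlapped with values of at least 5 in both lists, with the GATA1 intervals kept and with a 5 kb window. With the wild-type list shortened to 189 sites they overlapped too, at shares of 36.9% for heterozygous-only and 38.5% for shared sites. For positions inside and outside genes the intervals of these 2 classes overlapped. Seen from the heterozygous list, 25 of its 70 intervals at gene ends were shared (35.7%, 25.5 to 47.4), against 19 of the 119 elsewhere (16%, 10.5 to 23.6).

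The strand was known for 79.9% of protein-coding genes and for none on chromosome 18, which tells a 5′ from a 3′ end. Of the gene ends with wild-type-only sites, 912 were 5′ ends, 31 were 3′ ends and 174 had no strand. For shared sites these numbers were 20, 2 and 3, and for heterozygous-only intervals 27, 8 and 10. A known start site lay within 1 kb of the summit at 1023 of 1730 wild-type-only sites (59.1%, 56.8 to 61.4), 20 of 44 shared sites (45.5%, 31.7 to 59.9) and 35 of 143 heterozygous-only intervals (24.5%, 18.2 to 32.1). Among these, the median summit position, negative before the start, was −25 bp in wild-type-only sites, −93.5 bp in shared sites and 78 bp in heterozygous-only intervals. The summit was within 250 bp of the start at 87.7% of the wild-type-only sites (85.5 to 89.6), 85% of the shared sites (64.0 to 94.8) and 57.1% of the heterozygous-only intervals (40.9 to 72). Against wild-type-only sites, a smaller share of heterozygous-only intervals was therefore at starts, and those were more spread around them. Against shared sites both pairs of intervals overlapped. The 35 heterozygous-only intervals at starts include interferon zeta copies of uncertain class. A pair of starts facing away from each other within 1 kb was found at 117 wild-type-only sites (6.76%), 2 shared sites and 1 heterozygous-only interval.

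**Figure D2:**
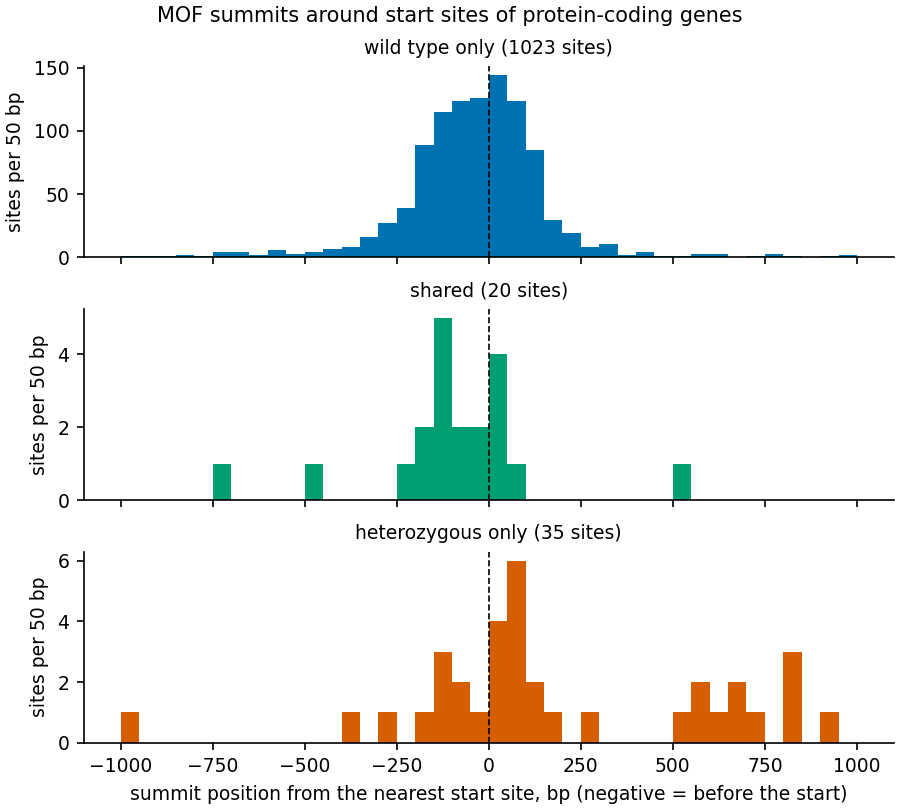
Histograms of summit position in 50 bp bins from the nearest known start site, in bp, for the summits within 1 kb (1023, 20 and 35 sites), with the dashed line at the start. Wild-type-only and shared summits pile up next to the start (medians −25 and −93.5 bp), while heterozygous-only summits are spread wider than the wild-type-only ones (median 78 bp).

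Megakaryocyte-erythroid progenitors (MEP), a population further along the path to red cells and platelets, gave a wild-type MOF list that was not used to form the classes. Of the wild-type-only sites, 210 (11.9%, 10.4 to 13.4) overlapped a wild-type MEP site. Of the shared sites 21 of 44 did (47.7%, 33.8 to 62.1), and of the heterozygous-only intervals 13 of 145 (8.97%, 5.31 to 14.7). Wild-type sites that were also in the MEP list were shared with the heterozygous list in 21 of 231 cases (9.09%, 6.02 to 13.5), against 23 of 1584 (1.45%, 0.969 to 2.17) of the rest. All 10 shared sites of the 4.5S RNA run on chromosome 6 were in the MEP list, and outside that run 11 of 34 were (32.4%, 19.1 to 49.2). Within the highest quartile of wild-type values the MEP list held 64 of 431 wild-type-only sites (14.8%, 11.8 to 18.5) and 6 of 15 shared sites outside the run (40%, 19.8 to 64.3). The heterozygous MEP list overlapped 1 wild-type-only site, 0 of 44 shared sites and 0 of 145 heterozygous-only intervals, counts of 0 that allow shares of up to 6.82% and 2.07% (3 counts of the total, for counting error only). The length of that list also limits these overlaps and is not given here, so absence of the sites from heterozygous MEP was not tested.

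**Figure D3:**
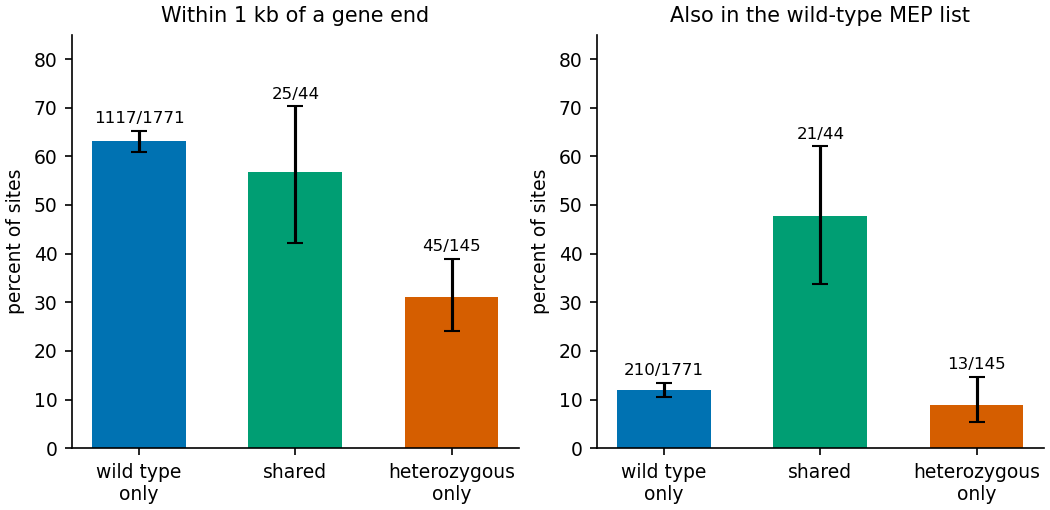
Percent of sites in each class that lay at a gene end (left) and that overlapped a wild-type MEP site (right), drawn as columns from 0, with 95% Wilson intervals as error bars and the counts above. The gene-end share is 63.1%, 56.8% and 31.0%, and the MEP share 11.9%, 47.7% and 8.97%, for wild-type-only, shared and heterozygous-only sites.

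Among shared sites at gene ends, the highest wild-type values next to a known gene start were at Gorasp2, Adprhl2 and the pair Tpmt and Kdm1b. At Gorasp2, which encodes a Golgi stacking protein, the wild-type value was 16.9 and the heterozygous value 10.4 with a 7.68-fold enrichment, and the wild-type summit lay 1 bp after the start. Adprhl2, an ADP-ribosylhydrolase, had 15.6 and 7.56. The site between Tpmt, a thiopurine methyltransferase, and Kdm1b, a demethylase of histone H3 lysine 4, had 12.9 and 7.66. These 3 sites ranked 21, 34 and 70 of 1815 in wild type, and 22, 45 and 40 of 189 in the heterozygous list, so they stood in the upper part of both lists.

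The other shared sites at gene ends are grouped here by role, not by a test. Of genes of membrane traffic, Sh3glb1, which encodes a membrane-curving endophilin, had a wild-type value of 9.35 and a heterozygous value of 5.45. Bbip1, a subunit of the BBSome that carries cargo to cilia, had 9.35 and 3.55. Golga5, a golgin tether, had 5.64 and 4.82. These sites kept their summits within 80 bp of each other between genotypes, and the sites of Sh3glb1 and Bbip1 were also in the MEP list.

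Of regulators of transcription and chromatin, Med13, a subunit of the Mediator kinase module, had values of 8.48 in wild type and 6.11 in heterozygotes. Zmiz1, a coactivator related to the PIAS proteins, had 5.88 and 6.29, and Pias1, a SUMO ligase, had 4.25 and 3.84. Smchd1, a chromosomal protein needed for silencing of the inactive X, had 3.39 and 4.82. Hjurp, the chaperone that loads the centromeric histone CENP-A, had 4.69 and 5.70. These are modest wild-type values, between rank 303 and rank 1443, with a heterozygous interval present at each.

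Of RNA-binding and ribosomal genes, Raver1, an RNA-binding cofactor of splicing, had 5.80 and 4.21, and Zfp36l2, which promotes decay of AU-rich messenger RNAs and acts in blood progenitors, had 5.38 and 8.99. Rps29, a protein of the small ribosomal subunit, had the lowest shared wild-type value, 1.89, beside a heterozygous value of 3.84, and the smallest overlap of all. Its pieces overlapped by 87 bp, followed by Nptn with 103 bp, 9030025P20Rik with 115 bp and Ccdc54 with 147 bp, the sites just inside the threshold.

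The other shared sites at gene ends belonged to Adam17, the protease that sheds TNF (4.55 and 3.84), Poc5, a centriole protein (3.93 and 6.91), and Nptn, a cell adhesion molecule (6.34 and 6.53). Dnpep, an aminopeptidase, had 5.92 and 2.35, Apba1, a synaptic adaptor, 6.92 and 5.64, and Zswim6, a zinc-finger gene, 7.59 and 1.82. The remaining 5 sites were at Gm32584 (its 3′ end with 18.8 and 20.5, its 5′ end with 11.5 and 7.99), Gm13272 (5.69 and 2.43), 9030025P20Rik (9.18 and 2.92) and Gm40364 (9.02 and 6.11). Gm13272 is the interferon zeta copy shown above, and the others are named only by model symbols. In all, the 25 shared sites at gene ends ranged from 1.89 to 18.8 in wild type and from 1.82 to 20.5 in heterozygotes, with enrichments of 3.21-fold to 7.68-fold.

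Of the 19 shared sites elsewhere, 9 lay in the 4.5S RNA run and 10 outside it. The highest of the latter was in a stretch of chromosome 8 near Gm15319, with 19.3 in wild type and 14.1 in heterozygotes. Within genes, Celsr2, a planar-polarity cadherin, had 14.4 and 7.11, the locus Nxpe4 12.6 and 16.4, Tiam1, an activator of the GTPase RAC1, 10.2 and 5.45, and Vps45, a vesicle fusion regulator, 10.2 and 16.3. The interval in Nxpe4 had a 10.5-fold enrichment, the highest among shared sites. The site 53467 bp from Runx3, a Runt factor of T cell development, had 2.99 and 6.10, the one in Ywhaz, a 14-3-3 protein, 2.99 and 6.91, and the one in Chd2, a chromatin remodeller, 3.82 and 5.45. The last 2 of the 10 lay near Ccdc54 (3.55 and 1.92) and 4930467E23Rik (3.88 and 6.38).

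The densest group of shared sites lay on chromosome 6 at the repeats that hold Rn4.5s, the gene of the 4.5S RNA transcribed by RNA polymerase III. It held 10 shared sites, 3 heterozygous-only intervals and 0 wild-type-only sites between positions 47655209 and 47772314. Neighbouring shared summits were a median of 4883 bp apart (4231 to 63297 bp). Wild-type values ran from 6.25 to 24.1 and heterozygous values from 4.48 to 17.0, with enrichments of only 2.98-fold to 3.96-fold, below the median of 5.45-fold over all shared intervals. The 10 sites also had values from 8.23 to 41.6 in wild-type MEP. Regularly spaced peaks in repeated units can hold reads of the same copies, so their number is uncertain.

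**Figure D4:**
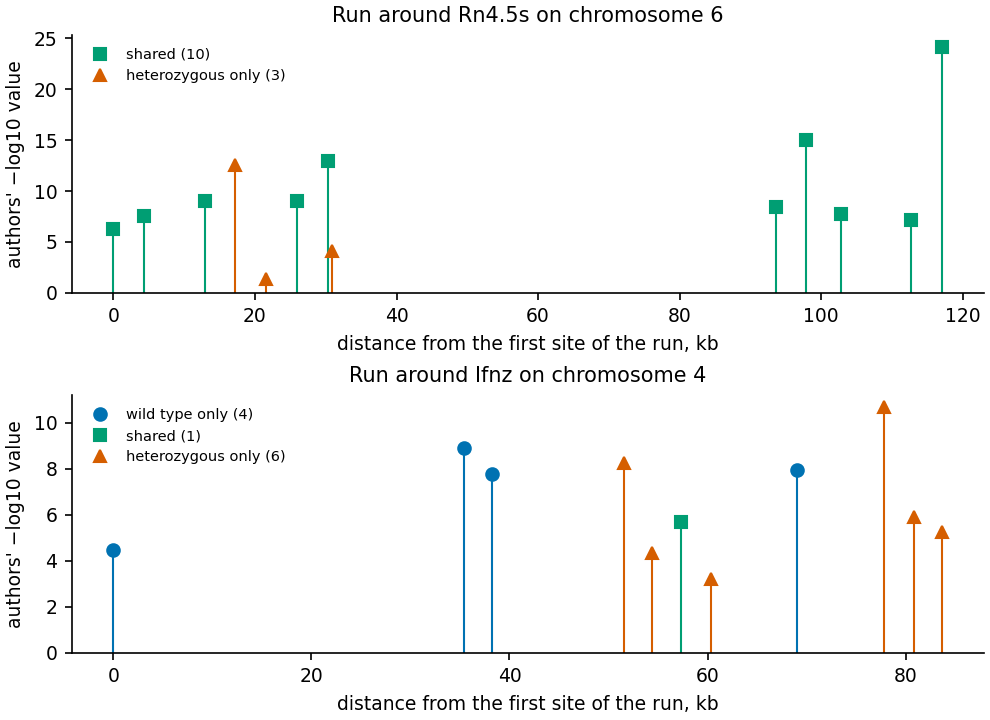
Authors' −log10 value against the distance in kb from the first site of the run, for the interferon zeta genes on chromosome 4 and the 4.5S RNA repeats on chromosome 6. Wild-type-only and shared points carry the wild-type value and heterozygous-only points the heterozygous −log10 q; the first run holds 4, 1 and 6 sites of the classes, and the second holds 0, 10 and 3.

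Wild-type-only sites with the highest values were of mixed position. The highest value, 28.5, lay 5571 bp from Cd209a, a lectin gene of dendritic cells. The next were near Mid1 on chromosome X (23.7), at Nme1, a nucleoside diphosphate kinase (22.2), near Atp13a2, a lysosomal ATPase (21.4), and in Cntnap5b (20.8). Ewsr1, an RNA-binding protein (20.6), Tpt1, a translationally controlled growth protein (20.3), Gdf15, a stress cytokine (19.1), Scaf11, a splicing factor (18.6), and a site 76785 bp from Chd2 (18.5) completed the 10 highest. The class as a whole had much lower values, with a median of 5.23 at gene ends and 5.16 elsewhere, so the medians were close. The nearest kept heterozygous interval to these 10 sites lay between 80398 bp (Chd2) and 43240532 bp (Mid1) away.

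Wild-type-only sites were rare on chromosome X, which held 23 of 1771 (1.3%, 0.867 to 1.94), against 4.47% of protein-coding genes. Of those at gene ends, Mospd2 had 7.03 and Tab3, an adaptor of TAK1 signalling, 5.64. The X held 0 of the 44 shared sites and 1 of the 145 heterozygous-only intervals. The sex of the animals is not given, and the peak lists hold no measure of X copy number.

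Near misses were few. The closest gap between a wild-type-only site and a heterozygous interval was 234 bp at H3f3b, followed by 239 bp at H2ac19, 282 bp at Eef1a1 and 289 bp at Xrn2. Within 500 bp there were 5 wild-type-only sites and within 1 kb 7. Of the 145 heterozygous-only intervals, 6 had a wild-type site within 500 bp and 55 (37.9%) within 100 kb. Pairs within 500 bp were thus few beside the 44 that overlapped.

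Genes were joined to a site where either end lay within 5 kb of its midpoint. This gave 1822 of 21631 protein-coding genes (8.42%) for wild-type-only sites, 38 (0.176%) for shared sites and 89 (0.411%) for heterozygous-only intervals. Genes with wild-type-only and heterozygous-only sites at different positions numbered 21, which is 1.15% of the former and 23.6% of the latter. Of the 38 genes joined to a shared site, none was also joined to a wild-type-only site. The gene lists below are described by their counts beside these background shares, with no test.

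The subunits of MOF's own complexes held wild-type-only sites at 4 of 12 genes, and no shared or heterozygous-only site. Kansl3 (6.87), Mcrs1 (6.81) and Kansl2 (3.76) belong to the NSL complex. Msl1 (5.92), the scaffold of the MSL complex, shares its site with the neighbouring gene Casc3. All 4 sites were at gene ends.

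Genes of protein synthesis differed between lists. Of 83 cytoplasmic ribosomal protein genes 29 (34.9%) had one, led by Rpl5 (12.4), Rpl26 (12.1) and Rpl3 (7.49), with Rps29 shared. Of 78 mitochondrial ribosomal protein genes 15 (19.2%) had one, among them Mrpl20 (11.4), Mrpl18 (8.55) and Mrpl45 (8.48). Of 71 translation factor genes 10 (14.1%) had one, with Eef2, the translocation factor, at 11.9, Eef1b2 at 6.92 and Eif1 at 6.59. Heterozygous-only intervals lay at Eif2s1, the alpha subunit of eIF2 (5.94), and at Eef1a1 (3.23), which also had a wild-type-only site of 4.71. The 37 aminoacyl-tRNA synthetase genes had 0 wild-type-only sites and 1 heterozygous-only interval, at Mars2 (7.23). A wild-type-only site deep inside Fars2 (2.77) is not counted, because genes were joined by their ends. These shares stand beside the 8.42% of all protein-coding genes.

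Small RNA genes were joined within 1 kb of a site, a window in which 6.08% of protein-coding genes had a wild-type-only site. Within 1 kb of a site were 46 of 408 tRNA genes (11.3%), 27 of 1003 snRNA genes (2.69%), 16 of 1340 snoRNA genes (1.19%) and 16 of 1228 miRNA genes (1.3%) for the wild-type-only class. The snRNA sites as RefSeq classes them included Rnu11 (14.3) and Rnu12 (7.44) of the minor spliceosome, Rnu1a1 (10.7) of the major one, Rnu2-10 (4.71), Rnu7, which acts in histone messenger RNA processing (3.23), and Rnu3b genes (up to 9.49). Shared sites met 0 of these 4 kinds, and heterozygous-only intervals 3 of the tRNA genes (0.735%), at 2 intervals of chromosome 13 with a value of 6.53 each. For genes that RefSeq classes as rRNA the order was the opposite, with 0 of 63 for wild-type-only sites, 1 (1.59%) for shared and 4 (6.35%) for heterozygous-only. The shared one was the small RNA gene of the chromosome 6 repeats described above, which RefSeq places in this class. The 4 heterozygous-only ones were copies in a single array on chromosome 8. This order thus rests on repeated genes at few places. Many of the small RNA genes are repeated, so reads between copies are uncertain.

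Histone genes had the highest wild-type-only share of the 20 lists. Of 100 genes 36 (36%) had a wild-type-only site, 0 a shared site and 7 a heterozygous-only interval. The site shared by H4c3 and H1f6 had 11.9, and that of H3c6 8.68. Heterozygous-only intervals lay at H2ac19 and H3c15 (6.22), H2bc9 and H3c7 (4.88), H1f2 and H3c3 (4.33), and H3f3b (2.92). At H3c15, H2ac19, H1f2 and H3f3b a wild-type-only site was called as well, with summits 527 bp apart at H2ac19, 1139 bp at H1f2 and 481 bp at H3f3b. Histone genes are clustered, several share a site, and some have near-identical copies, so the count of genes exceeds the count of independent sites.

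RNA processing and chromatin genes were next. Of 111 genes of splicing factors and hnRNPs 29 (26.1%) had a wild-type-only site, with Ewsr1 and Scaf11 as above and Srsf2, an SR protein, at 11.3, and Rbm39 had a heterozygous-only interval (2.62). Of 127 chromatin modifiers and remodellers 24 (18.9%) had one, led by Rsf1, a remodelling subunit (17.7), Smarcd1 of the SWI/SNF complex (14.4) and Hdac3, a histone deacetylase (13.5), at a site between Hdac3 and Diaph1. Kdm1b and Chd2 were the 2 shared members of that list. Hnrnpf of the splicing list is not counted by gene ends, although a wild-type-only site of 8.75 overlapped its promoter window. Both lists lay above the background share for wild-type-only sites. The 2 shared chromatin genes were 1.57% of their list, against 0.176% of all protein-coding genes. Rbm39 was 0.901% of its list, against 0.411% for heterozygous-only intervals. These counts are small and were not tested.

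Lists of maintenance and metabolism were nearer the background. Of 112 DNA repair and replication genes 13 (11.6%) had a wild-type-only site, among them Msh6 of mismatch repair (16.9), Parp2 (11.4) and Pcna, the replication clamp (8.05). Of 44 cell cycle genes 7 (15.9%) had one, led by E2f4 (7.55), Trp53 (6.70) and Cdkn1b (6.6). Of 88 oxidative phosphorylation genes 12 (13.6%) had one, with Sdhb at the 21.4 of the Atp13a2 site, Ndufs1 at 6.92 and Ndufa7 at 5.80. Of 48 proteasome genes 4 (8.33%) had one, with Psmd3 at 9.56, Psma1 at 8.13 and Psma3 at 4.93. Psma6 is not counted, because genes were joined by their ends, although a wild-type-only site of 7.41 overlapped its promoter window. By gene ends, none of these 4 lists had a shared site or a heterozygous-only interval. Deep inside its gene, Prkdc of the repair list had a heterozygous-only interval (5.45), and the repair genes Ddb2 and Atrip, which the list does not hold, had heterozygous-only intervals at gene ends.

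Of 30 genes known for stem cell function, 5 (16.7%) had a wild-type-only site. They were Lyl1, a bHLH factor (7.25), Mecom, which encodes EVI1 (5.94), Runx1 (3.61), Hlf (3.30) and Cxcr4, the receptor that holds stem cells in the marrow (2.67). Lyl1 also had a heterozygous-only interval (6.12), 3844 bp from the wild-type summit. Joining by gene ends leaves out sites inside genes more than 5 kb from either end. There 2 more list members had a heterozygous-only interval, namely Gata2 (3.75) and Lmo2 (3.81), both transcriptional regulators of stem cells. The Gata2 interval was 5585 bp from a gene end, but its summit lay only 733 bp after a known Gata2 start. Erythroid genes had 3 of 38 (7.89%), Bcl2l1 (8.05), Nfe2 (6.89) and Zfpm1 (5.99), and megakaryocyte genes 2 of 20 (10%), Nfe2 and Runx1. Lymphoid genes had 1 of 19, Cd3g (6.66), at a site nearest to Ube4a. Myeloid (20 genes), mast cell and basophil (10), stromal and endothelial (12) and olfactory receptor genes (1110) had 0 in every class by gene ends. The GATA1 list removed sites from both libraries, so erythroid counts hold only sites outside it.

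Heterozygous-only intervals at gene ends numbered 45, with values from 1.35 to 10.7. The highest, 10.7 and 8.25, were at Gm13285 and Gm13290 of the interferon zeta family, which also gave Gm13289, Gm13287, Gm13288 and Ifnz. Gm21814 had 8.25, Supt3, a SAGA subunit, 8.01, and Ddb2, which senses ultraviolet damage, 7.92. BC004004 had 7.66, Mars2, the mitochondrial methionyl-tRNA synthetase, 7.23, and Arf6, a GTPase of membrane recycling, 6.53. Values from the 6.53 of Ermard down to 5.26 were found at H2ac19, Lyl1, the pair Atp6v1d and Eif2s1, Erp29, Cic, a repressor of the growth factor response, Csrp1, Tmem222, Ctr9 of the PAF complex, Tmem106c and Adgrf5. Lower values, down to 1.35 at Pnrc1, were found among others at H2bc9, Ogfrl1, 4921507P07Rik, Atrip, Slc16a10, Vps36, H1f2, 4930467E23Rik, Hmga1, Xrn2, Slbp, Zfp963, Srd5a3, Kif3b, B4galnt1, Eef1a1, Pkn3, Rbm39, Dynlt1b and Zfp36l2. Only Tmem106c and H2bc9 of these 45 were also in the wild-type MEP list.

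Genes with both a wild-type-only site and a heterozygous-only interval were mostly pairs of nearby positions. Besides the histone genes, Eef1a1 and Lyl1, they were Unk (beside H3f3b), Xrn2 (3.00 and 4.03, summits 586 bp apart), Zfp963, Ermard and Tcte3, Ptma (2.32 and 3.23, 1294 bp apart), Utp3, Nfix (beside Lyl1), Tmem129, Gm13276, Gm13275, Hmga1, Rap2a and Lmna. Sox4, a factor of lymphoid development, had a wild-type value of 3.02 and a heterozygous value of 12 with 8.95-fold enrichment, 1476 bp apart. At Hmga1, an architectural chromatin protein, the wild-type site of 13.6 lay 9154 bp from the heterozygous one of 4.03. At Lmna, which encodes nuclear lamins A and C, the values were 11.3 and 6.71, 27705 bp apart. At the closest pairs, such as H3f3b and Xrn2, the class depends on the extension: with 500 bp on each side, 48 wild-type sites were shared in place of 44.

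The highest heterozygous-only values lay away from gene ends. They were 34.1 near Igsf11 (16.3-fold enrichment, 25630 bp from a gene end), 32.7 in Cpeb4 (7.66-fold), 31.5 near Gm8882 (16-fold), 16.1 in Inpp4b and near Cntnap2, 15.9 near Tnc, 15.1 near Col19a1, 13.7 in Lhfpl3, 12.6 at Gm40365 in the 4.5S RNA run and 12.4 near Olfr854. Of these 10, Cpeb4, Gm8882, Cntnap2, Gm40365 and Olfr854 were also in the wild-type MEP list, with MEP values of 25.5, 20.5, 5.19, 19.7 and 14.8. The site at Cpeb4 lay 2374597 bp from the nearest kept wild-type HSC site. Positions of highest heterozygous value were thus in part called in wild-type MEP but not in wild-type HSC.

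The runs of sites below were picked out after their positions and classes were seen, from runs that held shared or heterozygous-only sites. The larger part that they held of these classes than of wild-type-only sites was thus set by the choice and is not a result. At 5 regions lay 31 of the 145 heterozygous-only intervals (21.4%) and 13 of the 44 shared sites (29.5%), against 6 of the 1771 wild-type-only sites (0.339%). They were 14 heterozygous-only intervals on proximal chromosome 8 (values 2.99 to 8.02), 6 at the interferon zeta genes, 4 at the 5S rRNA array of chromosome 8 (1.73 to 4.07), 4 near Col19a1 on chromosome 1 and 3 at the 4.5S RNA repeats. Those near Col19a1 were up to 1346 bp wide with enrichments of 1.67-fold to 2.52-fold, against a median of 5.38-fold in the class. Without these regions the gene-end share was 63.0% in wild-type-only sites, 74.2% in shared sites and 33.3% in heterozygous-only intervals, and the MEP share of shared sites was 29.0%. A repeated stretch of 50 bases was found in 24 of 1148 promoter windows with a wild-type-only site (2.09%), 2 of 20 with a shared site, 4 of 24 with a heterozygous-only interval (16.7%) and 7.81% of all windows. The part of repeated sequence in these calls was not tested.

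Promoter windows of 300 bases that overlapped a site numbered 1148 for wild-type-only, 20 for shared and 24 for heterozygous-only sites, of 21045 in all. The mean GC content was 63.5%, 67.1% and 62.0%, against 56.4% in all windows, and the observed over expected CpG ratio 0.859, 0.847 and 0.847, against 0.546. The windows with sites were thus richer in GC and CpG than all windows in every class. The ETS core CCGGAAG was in 29.0% of the wild-type-only windows (26.5 to 31.7), 25% of the shared (11.2 to 46.9) and 25% of the heterozygous-only (12 to 44.9), against 11.7% of all. The words searched were exact, on either strand, and ACTTCCGG overlaps the reversed ETS core. ACTTCCGG was in 13.9%, 15% and 16.7%, against 5.20%.

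The SP1 box GGGCGG was in 73.6% of the wild-type-only windows (71.0 to 76.1), 85% of the shared (64.0 to 94.8) and 50% of the heterozygous-only (31.4 to 68.6), against 46.7% of all. The YY1 word AAGATGGC was in 6.62% (5.32 to 8.21) of the wild-type-only windows and 3.07% of all, in 3 of the 20 shared windows and in 0 of the 24 heterozygous-only windows, a count of 0 that allows up to 12.5% by the same rule of 3 counts. The E-box CACGTG was in 13.3%, 20% and 8.33%, against 7.91%. The TATA word TATAAA and the GATA word AGATAA were less frequent in wild-type-only windows than in all windows, at 6.62% against 12.7% and 4.27% against 9.68%. The shared and heterozygous-only classes had 5% and 8.33% for TATAAA, and 10% and 0 of 24 for AGATAA. The remaining words, GCCAAT of NF-Y and the longer words of NRF1 and ZNF143, had shares of 18.5%, 1.57% and 3.83% in wild-type-only windows, against 17.0%, 1.34% and 1.65%. With 20 and 24 windows, the intervals of the small classes overlap that of the wild-type-only class for the ETS, YY1 and E-box words, while for the SP1 box the heterozygous-only interval lies below it. That gap rests on the 4 interferon zeta copies of uncertain class, of which 0 hold the box: without them the share is 12 of 20 (60%, 38.7 to 78.1), whose interval overlaps.

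**Figure D5:**
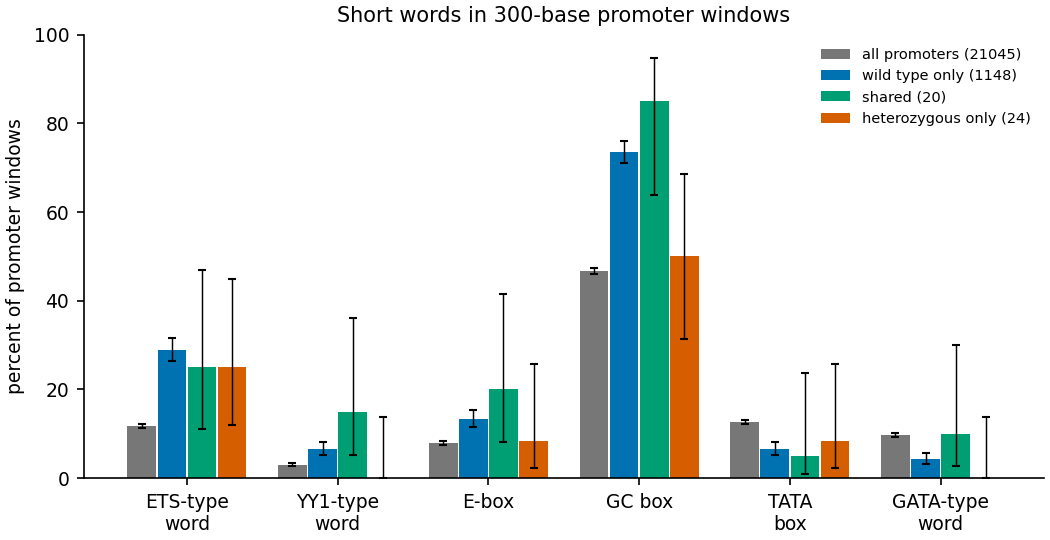
Percent of 300-base promoter windows that hold each short word on either strand, for all promoters (21045 windows) and for windows with wild-type-only (1148), shared (20) and heterozygous-only (24) sites, with 95% Wilson intervals. The wild-type-only windows hold the ETS core in 29.0% and the SP1 box in 73.6%, above the 11.7% and 46.7% of all windows, and the intervals of the 2 small classes are wide.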

How the data were processed

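MOF ChIP-seq peak lists of 1 wild-type and 1 heterozygous HSC library were used, with the wild-type and heterozygous MEP lists and the GATA1 list of HPC7. Bowtie2 2.3.0.1, MACS2, deepTools and mm10 are named per the submitters' processing notes; the sources used here give neither their settings nor the input used as background. The deposited wild-type lists hold 1 bp summits with a −log10 value by the authors' caller, read as −log10 q because its minimum, 1.31, lies just above the −log10 of 0.05. The deposited heterozygous lists hold intervals with the authors' fold enrichment (a ratio), −log10 p and −log10 q, and a score that the authors deposited as 10 times −log10 q without decimals. The GATA1 list that the authors deposited holds starts and ends only.

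Overlaps, positions and shares were computed in Python 3.11.15 with pandas 2.3.3 and statsmodels 0.14.6, and the overlap code was checked on simulated data. Genes and promoter windows came from RefSeq GRCm38.p6, whose gene table has no strand. Strand came from the promoter windows, which covered 79.9% of protein-coding genes, and chromosome 18 start sites were not used here. Coordinates are 1-based. Sites were named by the nearest protein-coding gene. The text names, per class, the 10 highest values, all shared and heterozygous-only sites at gene ends, the top 3 genes and the shared or heterozygous-only genes of 20 gene lists, genes with sites of both exclusive classes, and sites at the edge of the overlap rule; other genes were named after their values were seen. Some items that this rule names are not reported here. Members and lists were chosen with earlier results of these data known. The alternatives tried were other extensions, overlaps, value minimums and windows, the GATA1 intervals kept, and 4 chosen after seeing the data.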

Additional observations from a re-analysis of the deposited data

How the results depend on the processing

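No paired analysis was possible because each genotype had 1 library. Of 110 values recomputed under alternatives, 84 stayed within 1.5 times (counts) or within the 95% interval (shares) and 26 moved. Extending by 500 bp or requiring 150 bp of overlap moved none of the 13 values. With 1 bp summits the MEP share of wild-type-only sites was 9.46%. With values of at least 5 in both lists, 938 wild-type-only, 25 shared and 71 heterozygous-only sites were left by construction, near 1005, 19 and 41 genes, and the MEP shares were 14.3% (wild type only) and 16.9% (heterozygous only). With the GATA1 intervals kept, the shared gene-end share was 41.5% and the MEP shares were 63.1% (shared) and 20.8% (heterozygous only). A gene-end window of 5 kb gave 75.2% (wild type only) and 47.6% (heterozygous only), and a gene window of 1 kb left 53 heterozygous-only genes. Of the alternatives chosen after seeing the data, 1 site per run of 50 kb gave a wild-type-only MEP share of 10.2%. Leaving out the 5 regions with runs gave shared sites a gene-end share of 74.2% and an MEP share of 29.0%. Shortening the wild-type list to 189 sites left 176 wild-type-only sites near 217 genes and 13 shared sites near 8 genes. It gave gene-end shares of 66.5% (wild type only) and 38.5% (shared), and MEP shares of 16.5% (wild type only) and 14.8% (heterozygous only). Beyond the smaller number of sites, the cause of these moves was not tested. Depth is unknown, so a site absent from a list may only have been below that library's detection.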
